A study of Caenorhabditis elegans with 6 samples.

Results

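The genes described here are hlh-30, the Caenorhabditis elegans member of the TFEB family of transcription factors, the lysosomal lipase genes lipl-1 to lipl-5, and the autophagy genes lgg-1, bec-1, unc-51 and atg-18. They were taken as every probe set, the group of array probes that measures a transcript, whose single gene symbol in the platform annotation is one of these names. This gave 14 probe sets for the 10 genes, of 22548 probe sets and 17118 named genes in all. The members were chosen by a rule on names, drawn up with their Au-NP minus control differences on these arrays in view. Those differences chose the set, so the differences and calls between the groups are given as a description and support nothing by themselves.

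Whole worms of the wild-type strain N2 were reared at 20 °C and placed as age-matched third-stage larvae (L3) in dishes of 50% K-medium, a dilute salt solution, with about 2000 worms to a dish. The Au-NP group, with 3 dishes, received citrate-coated gold nanoparticles 4 nm across at 5.9 mg/L, which the labels call the LC10, for 12 h. The medium was then exchanged for fresh medium without particles for another 12 h before RNA extraction at 24 h. The control group, also with 3 dishes, is labelled only as control. The labels do not say whether food was given during the incubation. They do not say that dishes came from separate cultures, so p-values measure the spread between dishes. Each RNA sample was read on 1 Affymetrix array, and the study asked which transcripts differ after exposure.

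HLH-30 turns on autophagy and lysosome genes. In fed animals TORC1 signalling and nuclear export keep it out of the nucleus, and on fasting it moves in and helps to switch on lysosomal lipases, which release fatty acids from stored fat. Autophagy encloses cytoplasm in a membrane and delivers it to the lysosome. Its steps are started by a kinase (UNC-51), carried on by a lipid kinase complex (with BEC-1) and its reader (ATG-18), and completed by a small membrane-bound protein (LGG-1).

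All values are signals on the log2 scale from the deposited table, and a difference is Au-NP minus control with its moderated standard error (SE) from limma fitted over all 22548 probe sets. A probe set was called when its Benjamini-Hochberg adjusted p over the whole table was below 0.05. Array medians lay between 7.03 and 7.09, and with 3 arrays a group the precision is limited. Au-NP replicate 3 stood apart, with Pearson's r of 0.988 and 0.990 across probe sets to the other Au-NP arrays, which correlated with each other at 0.997. Its r to control replicates 1 to 3 was 0.990, 0.987 and 0.989, so it lay about as near to the controls as to its own group. Values without Au-NP replicate 3 are given where they matter. Directions follow the array labels. For the abu and pqn genes of these arrays they run opposite to the published account as remembered, which was not checked. If the labels were exchanged, every "lower" and "higher" here would turn round.

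Among the 14 probe sets, hlh-30 and unc-51 were the genes with lower signal in the Au-NP arrays, in all 3 of them. The lipases had positive differences of smaller size, and lgg-1, bec-1 and atg-18 had differences within 0.2 log2 units of 0. Of the 14, 4 were called lower, 1 was called higher and 9 were not called. Over all probe sets 11.9% were called, 5.68% as lower and 6.24% as higher. The 3 Au-NP values lay wholly on 1 side of the 3 control values for 9 of the 14, as they did for 30.8% of all probe sets. The median difference was 0.09 over the 14 and 0.03 over all.

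**Figure D1:**
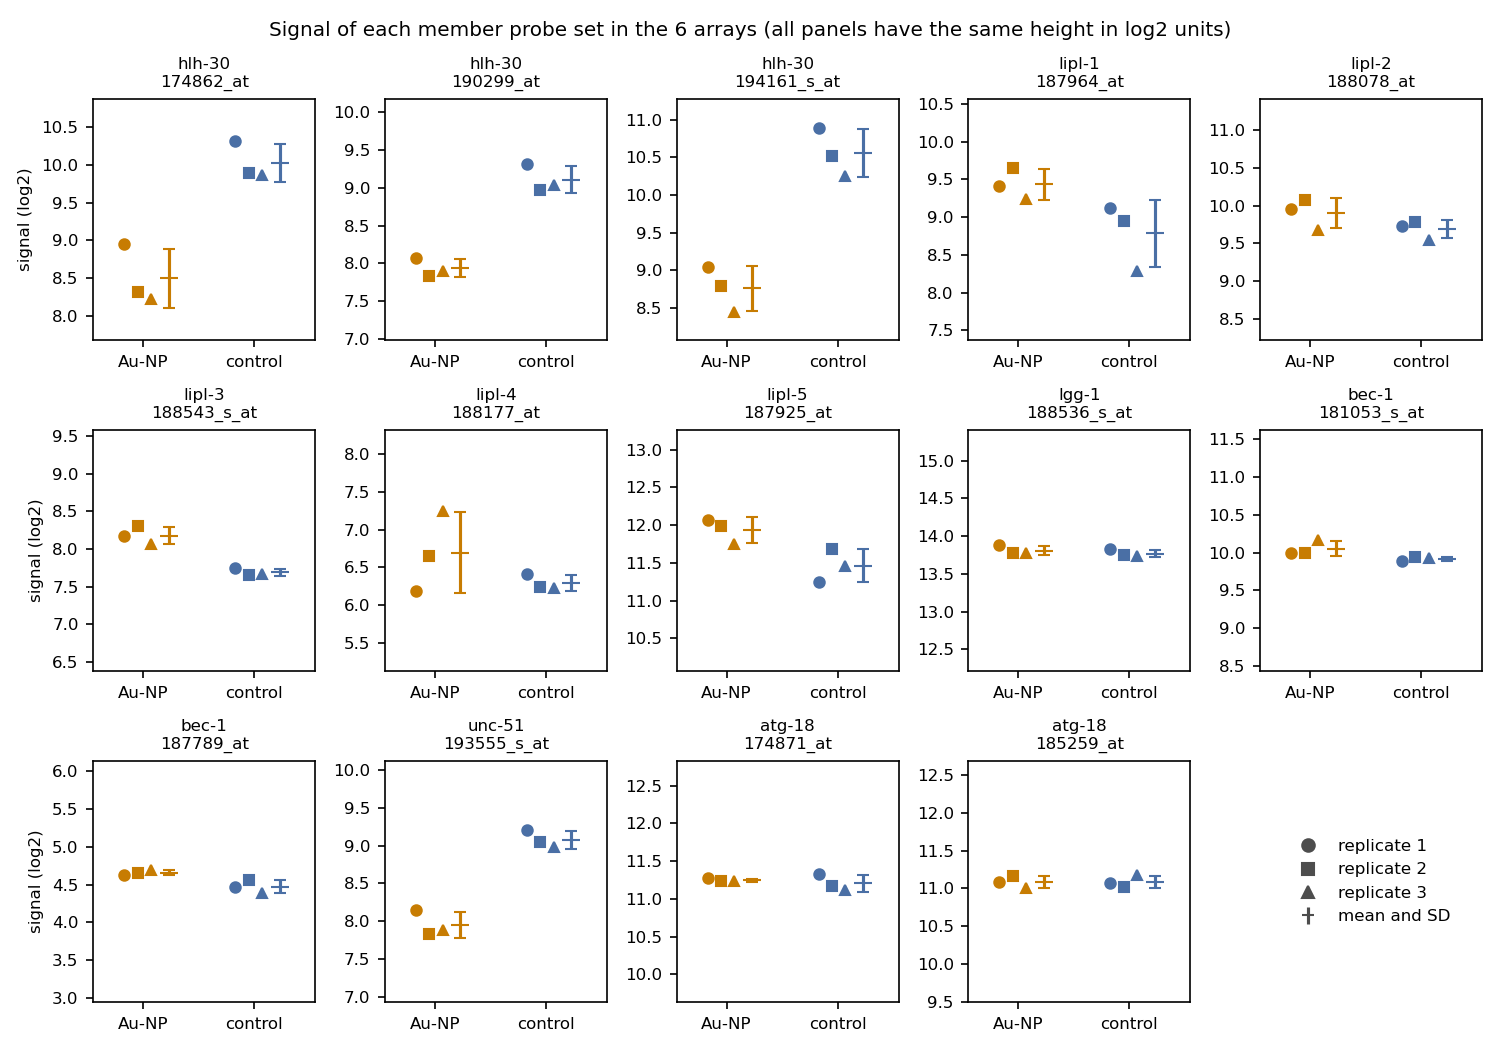
Signal (log2) of each of the 14 probe sets in 3 Au-NP arrays (orange) and 3 control arrays (blue), with symbols for the replicate number and the mean with its SD beside them. The hlh-30 and unc-51 panels show the 3 Au-NP arrays well below the controls, whereas the values of lgg-1 and atg-18 overlap.

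The regulator hlh-30 was measured by 3 probe sets, and each placed every Au-NP array below every control array. Probe set 194161_s_at read 9.05, 8.79 and 8.45 in Au-NP replicates 1 to 3 and 10.9, 10.5 and 10.3 in control replicates 1 to 3. The lowest control thus lay 1.21 log2 units above the highest Au-NP array. The mean was 8.76 ± 0.30 in Au-NP arrays and 10.55 ± 0.32 in controls (SD, n = 3 each), a difference of -1.79 ± 0.20 (SE), which is 3.46-fold lower.

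The second probe set, 174862_at, read 8.95, 8.32 and 8.23 in Au-NP arrays and 10.3, 9.89 and 9.87 in controls, a difference of -1.53 ± 0.21 (SE). The third, 190299_at, read 8.07, 7.84 and 7.90 in Au-NP arrays and 9.32, 8.98 and 9.03 in controls, a difference of -1.17 ± 0.11. All 3 were called lower, and all 3 had their highest Au-NP value in replicate 1 and their highest control value in replicate 1. Over the 6 arrays the probe sets correlated with each other at r = 0.983, 0.984 and 0.987, a description in which the group difference takes part. The probe sets differed in size of the change, from 2.25-fold to 3.46-fold, and which hlh-30 transcripts each one reads is not given in the sources used here. The suffix of 194161_s_at marks possible cross-hybridization, and the other 2 carry no such mark.

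Leaving out single arrays moved the 3 differences between -1.94 and -1.07, and every one of these fits called all 3 lower. Without Au-NP replicate 3 they were -1.63, -1.40 and -1.15. When the variance of each probe set was used alone, with no moderation across the table, none of the 3 was called, nor was unc-51.

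Of the 5 lysosomal lipase genes, all had positive differences and 1, lipl-3, was called higher. The lipl-3 signal was 8.17, 8.30 and 8.07 in Au-NP arrays and 7.75, 7.66 and 7.67 in controls. The groups did not overlap, and the difference was 0.49 ± 0.08 (SE), or 1.40-fold. With single arrays left out lipl-3 was called in 3 of 6 fits, with differences from 0.43 to 0.54. It was not called without Au-NP replicate 2, control replicate 2 or control replicate 3. Its suffix marks possible cross-hybridization.

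The lipl-1 signal was 9.42, 9.65 and 9.24 in Au-NP arrays and 9.12, 8.95 and 8.28 in controls. The groups lay 0.12 apart, less than the 0.84 by which the controls differed among themselves, and the difference of 0.65 ± 0.22 (SE) was not called. The lipl-5 signal was 12.07, 11.99 and 11.74 in Au-NP arrays and 11.25, 11.68 and 11.46 in controls. Here too the groups did not overlap, by 0.06, and the difference of 0.47 ± 0.13 was not called. With single arrays left out lipl-1 ranged from 0.40 (without control replicate 3) to 0.82 and lipl-5 from 0.36 (without control replicate 1) to 0.58. Each was called in 1 of these 6 fits, the one without Au-NP replicate 3, at 0.75 and 0.57.

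The remaining 2 lipases had groups that overlapped. The lipl-4 signal was 6.19, 6.65 and 7.25 in Au-NP arrays and 6.41, 6.24 and 6.23 in controls. Au-NP replicate 3 carried most of the difference of 0.40 ± 0.24 (SE), which was 0.13 without that array and 0.66 without Au-NP replicate 1. LIPL-4 is the lipase known for extending life when overproduced in the intestine. The lipl-2 signal was 9.95, 10.08 and 9.68 in Au-NP arrays and 9.73, 9.79 and 9.55 in controls, a difference of 0.21 ± 0.12. For lipl-2 Au-NP replicate 3 sat at the mean of the controls, and the difference was 0.32 without it, 0.13 without Au-NP replicate 2 and 0.14 without control replicate 3.

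**Figure D2:**
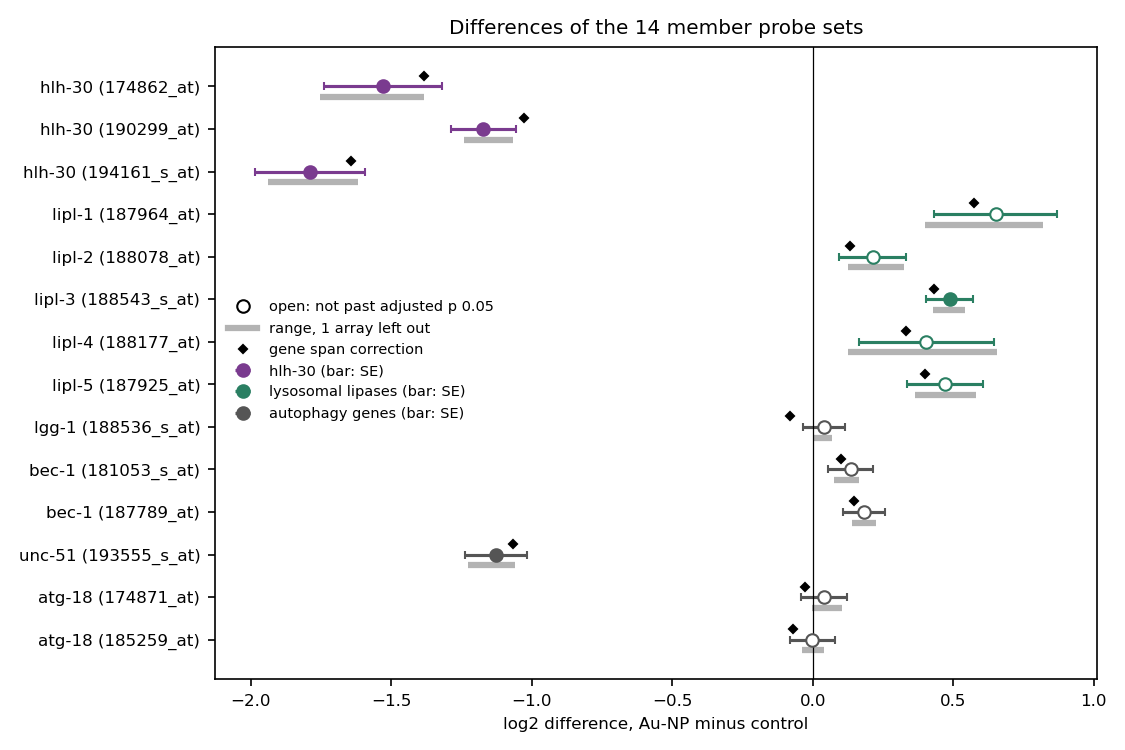
Log2 differences (Au-NP minus control) of the 14 probe sets with SE bars, where filled points were called at an adjusted p of 0.05. Grey bars span the differences with 1 array left out and diamonds show the difference after a correction for gene span, and hlh-30 and unc-51 stay below -1 in each.

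Among the 4 autophagy genes, unc-51 was the one called. It encodes the worm Atg1 (ULK) kinase that starts autophagosome formation and is also needed for axon guidance. Its probe set read 8.15, 7.83 and 7.88 in Au-NP arrays and 9.21, 9.04 and 8.98 in controls. The groups were 0.84 apart, and the difference was -1.13 ± 0.11 (SE), or 2.19-fold lower, and called. Leaving out single arrays gave -1.23 to -1.06, each time called. The unc-51 probe set also carries a suffix of possible cross-hybridization.

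The other 3 autophagy genes had no call in any of the fits tried. For lgg-1, whose product coats autophagosomes, the signal was 13.88, 13.77 and 13.77 in Au-NP arrays and 13.82, 13.74 and 13.74 in controls, a difference of 0.04 ± 0.07 (SE). For atg-18, the WIPI homologue that binds phosphoinositides, the 2 probe sets gave 0.04 ± 0.08 and -0.0013 ± 0.08, with overlapping groups in both. The Beclin gene bec-1 gave 0.14 ± 0.08 on 181053_s_at and 0.18 ± 0.08 on 187789_at. In both bec-1 probe sets the groups did not overlap, by 0.05 and 0.07. The second of them was the only 1 of the 14 below the 25th percentile of mean signal, and 12 of the 14 lay above the median.

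The plot of array profiles holds lipl-1, lipl-3 and lipl-5, the lipases whose groups did not overlap. These 3 and the lower genes did not mirror each other within a group. Of the lipases left out of the plot, lipl-4 lay at -0.10, 0.35 and 0.96 against the control mean in Au-NP replicates 1 to 3. It thus rose over the replicates while hlh-30 fell on 2 probe sets. The lipl-2 values were 0.26, 0.39 and -0.01. The Au-NP array with the lowest lipl-1, lipl-3 and lipl-5 signals was replicate 3, at 0.45, 0.38 and 0.28 above the control mean. For hlh-30 the same array was the lowest of the 3 on 2 probe sets, at -2.10 and -1.80 against the control mean. Au-NP replicate 1 was the least lowered array for hlh-30, at -1.51, -1.08 and -1.04, and for unc-51, at -0.93. In the controls, hlh-30 and unc-51 both had their highest value in replicate 1.

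**Figure D3:**
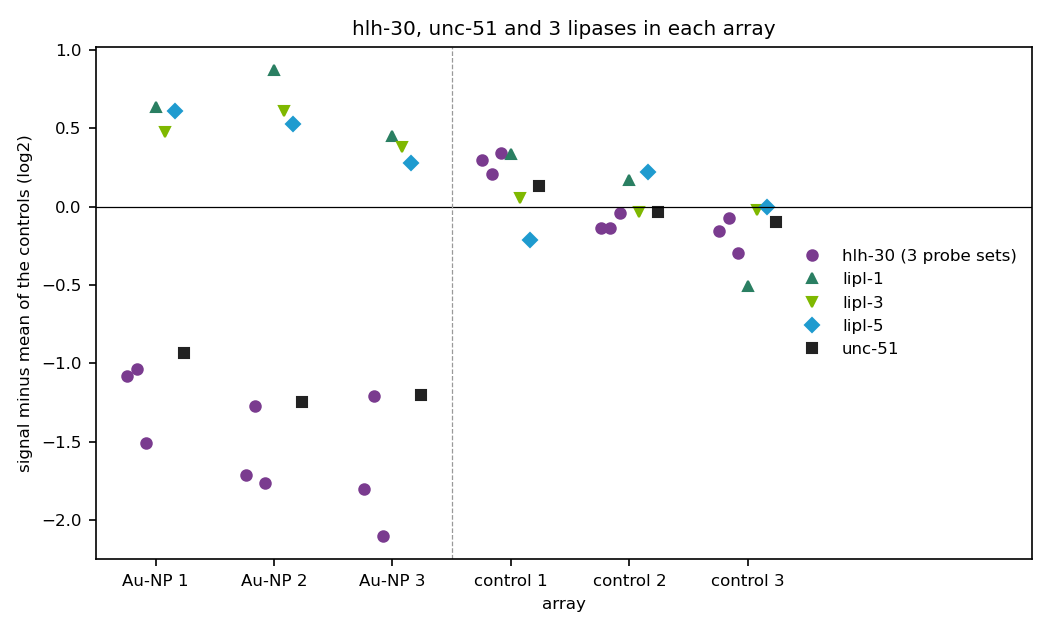
Signal of hlh-30 (3 probe sets), unc-51, lipl-1, lipl-3 and lipl-5 in each array, minus the mean of the 3 control arrays (log2). In all 3 Au-NP arrays hlh-30 and unc-51 lie at or below -0.93 and the 3 lipases at or above 0.28.

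The members called lower are also the longest genes of the set. From start to end, introns included, hlh-30 spans 19990 bp and unc-51 spans 8500 bp in the reference gene table, and the other 8 genes span 760 to 3285 bp. Among the 20701 probe sets whose span was known, split into 5 equal bins, 15% of the longest bin (from 5440 bp) and 1.16% of the shortest (up to 1285 bp) were called lower. Higher calls ran the other way, at 2.27% of the longest bin and 11.7% of the shortest, and the lipl genes span 1675 to 2624 bp. With the trend of each array against gene span removed, the hlh-30 differences were -1.64, -1.38 and -1.03, the unc-51 difference was -1.07 and the lipl-3 difference was 0.43. These 5 probe sets were called after that correction too.

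The 5 genes whose signal ran most like that of hlh-30 194161_s_at over the 6 arrays, by Pearson's r among 10743 probe sets above the median level, were clp-1, larp-5, afd-1, egl-30 and H28G03.2. Their r lay between 0.996 and 0.999, and their differences between -1.42 (larp-5) and -0.56 (clp-1). With 6 arrays in 2 groups, any gene with a steady difference between the groups correlates in this way.

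Genes around HLH-30, the dimer partners, competitors and nutrient sensors that set its activity, were measured for 25 of 26 listed genes. They were 3 higher, 3 lower and 19 not called, with a median difference of -0.0015 beside 0.04 over all 17118 genes at 1 probe set each, of which 7.09% were called higher and 4.45% lower. The genes called lower were xpo-1, the exportin that carries HLH-30 out of the nucleus, mml-1, a Mondo-family factor that works with HLH-30 in longevity, and rict-1, a TORC2 subunit named here after its value was seen. The xpo-1 difference was -0.46 ± 0.09 (SE, limma adjusted p = 0.0236), and its other probe set gave -0.57. The mml-1 difference was -0.47 ± 0.10 (limma adjusted p = 0.0246), with -0.45 and no call on its other probe set, and rict-1 had -0.47 (limma adjusted p = 0.0458).

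The nutrient-sensing genes called higher were lmtr-2, a subunit of the lysosomal Ragulator complex, at 0.41 ± 0.08 (SE, limma adjusted p = 0.0235), and raga-1, a Rag GTPase that activates TORC1, at 0.37 ± 0.08 (limma adjusted p = 0.0294). The Max-like gene mxl-1 had 0.44 ± 0.09 (limma adjusted p = 0.0259). After the gene span correction none of these 3 was called, nor was rict-1. The TOR kinase gene let-363 had -0.0015 ± 0.09, its partner daf-15 (raptor) -0.33 ± 0.10 (limma adjusted p = 0.0693) and the AMPK gene aak-2 -0.38 ± 0.11 (limma adjusted p = 0.0636). The second daf-15 probe set gave 0.03.

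The lipase repressor mxl-3, which competes with HLH-30 for the same lipl promoters in fed worms, varied widely between arrays. Its signal was 7.45, 8.16 and 9.52 in Au-NP arrays and 9.06, 8.56 and 9.34 in controls. Au-NP replicate 3 was the highest of all 6 arrays and the other 2 Au-NP arrays were the lowest, so the groups overlapped. The difference was -0.61 ± 0.48 (SE, limma adjusted p = 0.502). Leaving out Au-NP replicate 3 gave -1.18 (limma adjusted p = 0.0131). That array also stood above the other 2 Au-NP arrays in the hypodermis markers described below. Their median difference from the control mean was -0.12, -0.08 and 0.26 in Au-NP replicates 1 to 3. Whether the mxl-3 pattern is part of that shift was not tested.

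**Figure D4:**
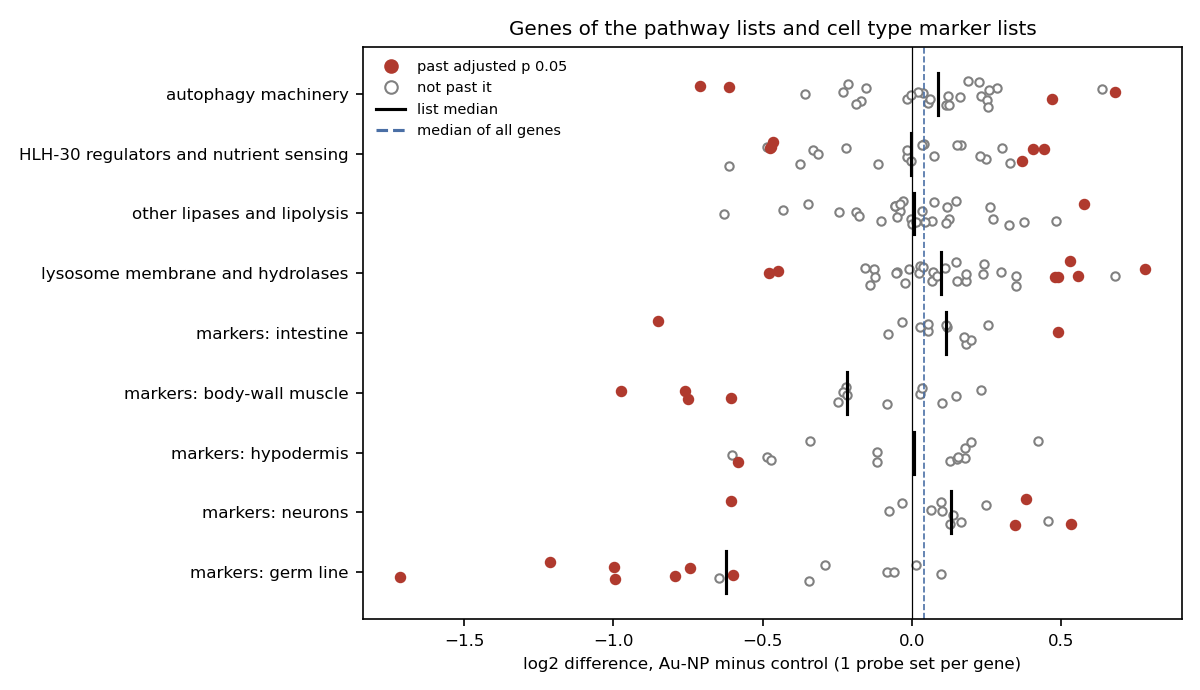
Log2 differences (Au-NP minus control) of the genes in 4 pathway lists and 5 cell type marker lists, 1 probe set per gene, with called genes filled in red. Black bars are list medians and the dashed line is the median of all genes, 0.04. The germ line list lies to the left, with a median of -0.62.

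The wider autophagy machinery had 28 of 29 listed genes measured, of which 2 were higher, 2 lower and 24 not called, with a median of 0.09. Over all genes 7.09% were called higher and 4.45% lower, with a median of 0.04. The genes called lower were atg-9, the membrane protein that supplies lipid to the growing autophagosome, at -0.71 ± 0.12 (SE, limma adjusted p = 0.0144), and rab-7, a GTPase of late endosomes and lysosomes, at -0.61 ± 0.12 (limma adjusted p = 0.0204). The genes called higher were atg-10, a conjugating enzyme, at 0.68 ± 0.11 (limma adjusted p = 0.0120), and vps-11, a subunit of tethering complexes, at 0.47 ± 0.10 (limma adjusted p = 0.0275). The second vps-11 probe set gave 0.02 and the second rab-7 probe set -0.35, and neither was called.

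Several central autophagy genes were not called. The lipid kinase gene vps-34, partner of bec-1, had 0.23 ± 0.08 (SE, limma adjusted p = 0.116), and lgg-2, which acts in autophagosome formation, had 0.26 ± 0.08 (limma adjusted p = 0.0790). The second lgg-2 probe set gave 0.02. The p62 homologue sqst-1, a cargo receptor, had 0.06 ± 0.09, atg-16.2 had 0.25 ± 0.11, and the late-step gene epg-5 had 0.19 ± 0.13. The groups did not overlap for vps-34, lgg-2 and atg-16.2.

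Other lipases and lipolysis genes were mostly not called. Of 30 measured of 31 listed, 1 was higher, 0 were lower and 29 were not called, with a median of 0.01. Over all genes 7.09% were called higher and 4.45% lower, with a median of 0.04. Of the 30 measured, 9 lay below the 25th percentile of mean signal. The called gene was lipl-7, another member of the lysosomal lipase family, with 9.99, 9.92 and 9.66 in Au-NP arrays and 9.28 in each control. Its difference was 0.58 ± 0.10 (SE, limma adjusted p = 0.0142). The family members lipl-6 and lipl-8, named here after their values were seen, had 0.12 and -0.0043. The cytosolic triglyceride lipase gene atgl-1 had -0.19 ± 0.11 (limma adjusted p = 0.322), with its other probe sets at -0.15 and -0.09. The nuclear receptor gene nhr-49 had -0.04 ± 0.08. For lbp-8, the lipid chaperone gene that acts with lipl-4, the signal lay between 3.67 and 3.82 in Au-NP arrays and between 3.70 and 3.77 in controls, near the lowest value in the table, 3.44.

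Lysosomal membrane proteins and hydrolases had 32 of 38 listed genes measured, of which 5 were higher, 2 lower and 25 not called, with a median of 0.10, beside 7.09% higher, 4.45% lower and a median of 0.04 over all genes. The higher ones included spin-1, a spinster-like lysosomal transporter, at 0.49 ± 0.07 (SE, limma adjusted p = 0.00845), the sulfatase gene sul-2 at 0.48 ± 0.08 (limma adjusted p = 0.0131) and the LAMP-like gene lmp-2 at 0.53 ± 0.11 (limma adjusted p = 0.0228). The other two, named after their values were seen, were the nuclease gene nuc-1 at 0.56, which was not called after the gene span correction, and spin-3 at 0.78. The lower ones were cpl-1, the cathepsin L protease, at -0.48 ± 0.10 (limma adjusted p = 0.0275) and spin-2 at -0.45 ± 0.10 (limma adjusted p = 0.0323). The other cpl-1 probe set gave -0.29. The lysosomal membrane gene lmp-1 had 0.24 ± 0.08 (limma adjusted p = 0.0919) and the lysosomal calcium channel gene cup-5 had 0.18 ± 0.09.

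Calls of single pathway genes changed when single arrays were left out, as did calls over all probe sets. With all arrays 1408 probe sets were higher and 1281 lower. With 1 array left out 146 to 2047 were higher and 410 to 1953 lower. A lost call therefore does not by itself single out the array left out. Of 15 named pathway genes that were called, 1, spin-1, was called with each of the 6 arrays left out in turn. The 15 leave out rict-1, nuc-1 and spin-3, which were named after their values were seen. The lysosomal genes called higher numbered 7 without Au-NP replicate 3 and 1 without Au-NP replicate 2.

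RNA came from whole worms, so fewer cells of a type and less RNA per cell cannot be told apart. Beside the marker counts below, 7.09% of all genes were called higher and 4.45% lower. Of the germ line markers 7 of 14 were called lower and 0 higher, with a median of -0.62 (-0.30, -0.68 and -0.75 in Au-NP replicates 1 to 3). The 7 germ line markers not called had differences from -0.64 (pgl-1) to 0.10 (fbf-1). The summed signal of the 14 germ line markers on the linear scale was 4710 to 6900 in Au-NP arrays and 8110 to 9588 in controls. Body-wall muscle markers had 4 of 14 lower and 0 higher, with sums of 99254 to 107124 in Au-NP arrays and 111584 to 111911 in controls. The 4 called, unc-89, unc-54, myo-3 and unc-15, span 55184, 7582, 7528 and 6594 bp, all in the longest span bin. The other long muscle genes, unc-22 and lev-11, had -0.23 and -0.22 and were not called. Differences of the shorter muscle genes ran from -0.25 (mup-2) to 0.23 (unc-27). Of the hypodermis markers 1 of 14 was lower and 0 were higher, with sums of 42949 to 54938 in Au-NP arrays and 50914 to 58424 in controls. Neuron markers had 3 of 14 higher and 1 lower, with sums of 23226 to 25468 in Au-NP arrays and 22614 to 24225 in controls. In the intestine, where the lipl genes are mainly expressed, 1 of 13 measured markers was higher (elt-7, 0.49) and 1 lower (act-5, -0.85). The sums were 32282 to 35519 in Au-NP arrays and 31202 to 34124 in controls. Of these markers mtl-2 had the highest mean signal, 13.74 in Au-NP arrays and 13.54 in controls, and so weighs most in the sums. The part of these shifts in the hlh-30, unc-51 and lipase differences was not tested, nor was the part of gene span in the muscle marker shift.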

How the data were processed

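The authors deposited 1 table of log2 signals for 22625 probe sets and 6 arrays, made with RMA according to the submitters' notes (per the labels), where Partek 6.4 also appears. RMA corrects background, quantile-normalizes the arrays together and shrinks weak signals. The scale was read from the values, which ran from 3.44 to 15.2. Genome build and scanner files were not used here, and no sequence or coordinate is printed. After removal of 77 Affymetrix control probe sets, 22548 were tested. The platform annotation gave 20766 of them a single symbol, 887 several and 895 none, and 20701 had a gene span in the reference gene table (assembly WBcel235).

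The fit used R 4.3.3 and limma 3.58.1 (linear model with empirical Bayes, group alone, two-sided, 4 residual and 3.39 prior degrees of freedom), with Benjamini-Hochberg adjustment over all probe sets. On simulated data for this comparison, with 22548 probe sets, 34.9%, 84.8% and 97.3% of changes of 0.5, 1 and 2 log2 units were recovered. Each of 5 runs changed 200 probe sets, with independent noise, and false calls averaged 8.8 a run. The simulation held no outlying array and no trend with gene span. It also changed fewer probe sets than the 2689 called in the real arrays, and the adjusted p depends on that number. Recovery in the real arrays may therefore differ. Members and lists were chosen with earlier results of these data known. Named genes were all members, up to 5 called genes with the smallest p per list, and 18 fixed genes. List counts used each gene's probe set with the highest mean. The 16 alternatives covered a replicate block, leaving out each array, scaling, filters on low signal, array weights, probe specificity, variance models and gene span.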

Additional observations from a re-analysis of the deposited data

How the results depend on the processing

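Directions of hlh-30, unc-51, lipl-1 to lipl-5 and bec-1 held in every alternative that kept their probe sets. Calls over all probe sets (1408 higher, 1281 lower) became 2372 higher with array weights, 759 higher with the gene span correction, 628 lower without probe sets of possible cross-hybridization, and 33 higher and 39 lower with gene-wise variances. The share of higher calls was 52.4%, 41% with the span correction, 61.4% without cross-hybridizing sets and 26.3% (without Au-NP replicate 2) to 51.2% with 1 array left out, when 146 to 2047 were higher and 410 to 1953 lower. Members called higher (1) numbered 2 with the replicate block, above the median level and with trend and robust variances, 3 with array weights, and 0 with gene-wise variances and without cross-hybridizing sets (0 to 3 with 1 array left out). Members called lower (4) numbered 2 without cross-hybridizing sets, 0 with gene-wise variances, and 4 with any 1 array left out. The removal of cross-hybridizing sets left lipl-3, unc-51 and the hlh-30 probe set with such a suffix out of the fit. Their calls were therefore not retested there. The hlh-30 probe sets without the suffix stayed called lower.

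With gene-wise variances 1 lysosomal gene was higher, 0 were lower and 0 genes of the other lists were called. HLH-30 regulators were 0 higher with the span correction, and 5 lower above the median level and with array weights, 6 after quantile normalization again and 1 with the replicate block. Autophagy genes were 1 higher and 1 lower above the median level. Lysosomal genes were 1 lower above the median level, with the replicate block and without cross-hybridizing sets. The median filter left atg-10, rab-7 and spin-2 out of the fit, and the removal of cross-hybridizing sets left out cpl-1. Their calls were therefore not retested there. Other lipases were 2 higher above the median level and with the replicate block, 4 higher with array weights, and 1 lower with either level filter, array weights, the span correction, quantile normalization and trend and robust variances. With 1 array left out, higher and lower calls ranged from 0 to 3 and 0 to 5 for regulators, 0 to 3 and 0 to 2 for autophagy, 1 to 7 and 0 to 2 for lysosomal genes, and 0 to 3 and 0 to 4 for other lipases.

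Signs turned near 0. The span correction gave -0.081 for lgg-1, -0.027 for atg-18 174871_at, 0.13 for let-363 and -0.11 for lbp-8. Quantile normalization gave -0.016 for atg-18 174871_at. Median centring gave 0.014 for atg-18 185259_at and for let-363 and 0.011 for lipl-8. Array weights gave 0.038 for atg-18 185259_at and -0.0072 for lbp-8. With 1 array left out the ranges were -0.0015 to 0.10 for atg-18 174871_at, -0.039 to 0.040 for 185259_at, -0.073 to 0.062 for let-363, -0.028 to 0.051 for lbp-8 and -0.057 to 0.035 for lipl-8.

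Deviations of same-numbered dishes from their group means correlated at r = -0.33, 0.43 and 0.22, and Au-NP replicate 1 correlated best with control replicate 2 (0.48). Deviations from a shared group mean depend on each other, so these r values cannot show whether dishes were set up in pairs. The fit on group alone treated dishes as unpaired. The replicate block gave 1100 higher and 1173 lower, called lipl-1 as well and lost vps-11, xpo-1, spin-2, rict-1 and spin-3. The causes were not tested.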
